A study of Mus musculus with 6 samples.

Results

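The genes described here encode the adhesion machinery that leukocytes and tissue cells use to hold on to one another and to the matrix. They are 18 integrin alpha subunits, 8 integrin beta subunits, the endothelial selectins Sele and Selp, the selectin ligand Selplg, the integrin counter-receptors Icam1, Icam2, Vcam1 and Madcam1, and the junction proteins Jam2 and Jam3. They were chosen by gene symbol, and all 35 have a row among the 23183 genes of the tables. RNA was sequenced from mouse lung (C57BL/6 background) in 6 libraries, 3 labelled saline and 3 labelled LPS, both given into the trachea. LPS, lipopolysaccharide, is an outer membrane component of Gram-negative bacteria and provokes acute lung inflammation. The sources used here give no dose, time after instillation or age.

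The titles of all 6 libraries name wild-type mice. For the saline libraries the genotype field also gives wild type, whereas it gives LCN2-/- for LPS 1 and LPS 2 and LCN4-/- for LPS 3. Lcn2 RNA was high in every LPS library, at 13.60, 13.29 and 13.82 on the deposited log2 scale against 8.2, 11.28 and 10.11 in saline. That goes against the genotype field for LPS 1 and LPS 2. Should the field hold, genotype and treatment cannot be told apart. Below, LPS and saline therefore mean the libraries so labelled. Lung identity was clear in each library, with the surfactant gene Sftpc at 13.46 or above and the alveolar type 1 cell gene Ager between 9.86 and 10.34.

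The deposited values are log2(expression value + 1), and a difference is LPS minus saline on that scale, from limma, a linear model fitted over 13116 genes with at least 3 libraries at an expression value of 1 or above. "Passed" means an adjusted p under 0.05 (Benjamini-Hochberg). Library depth is unknown. The LPS 3 table ends early and has no value for 4484 genes, Vcam1 being the only one of the 35. Over 10295 genes (not independent of one another) 2 saline libraries correlated at 0.964 or above, 2 LPS libraries at 0.984 or above, and libraries of different groups at 0.932 or below. The saline tables hold 1505 to 1936 values above 0 but under 0.01, those of LPS 11 to 24, so for genes near 0 the making of the tables and the treatment cannot be told apart.

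Leukocytes leave the blood in steps. Selectins on activated endothelium catch passing cells through carbohydrate-bearing ligands such as PSGL-1, the product of Selplg, and let them roll. Integrins on the leukocyte, each a pair of an alpha and a beta subunit, then bind immunoglobulin-fold proteins such as ICAM-1 and VCAM-1 and stop the cell, and junction proteins such as the JAM family take part in its passage. Other integrins, on epithelium, fibroblasts, muscle and platelets, bind matrix proteins, and some of them release active TGF-beta from its latent form.

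Between the LPS and saline libraries the adhesion genes moved in both directions. The endothelial selectins and the neutrophil and monocyte integrin subunit Itgam were far higher in LPS, and the integrin subunits Itga8 and Itga1 were far lower. Of the 35 genes 30 were tested, 10 rose, 9 fell and 11 did not pass, and the remaining 5 were too low to be tested. With every library set to equal sums, a scaling that lowers nearly all LPS values, 4 rose and 15 fell. The 10 that rose are 33.3% of those tested, where 25.7% of all genes tested rose, and the 9 that fell are 30% where 24.3% of all genes fell. The counts therefore lie near those of the genome at large, and the results rest on which genes moved and how far. The median difference was 0.29 over the adhesion genes tested and 0.02 over all genes tested. In whole lung RNA, fewer cells of a type and less RNA per cell cannot be told apart.

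**Figure D1:**
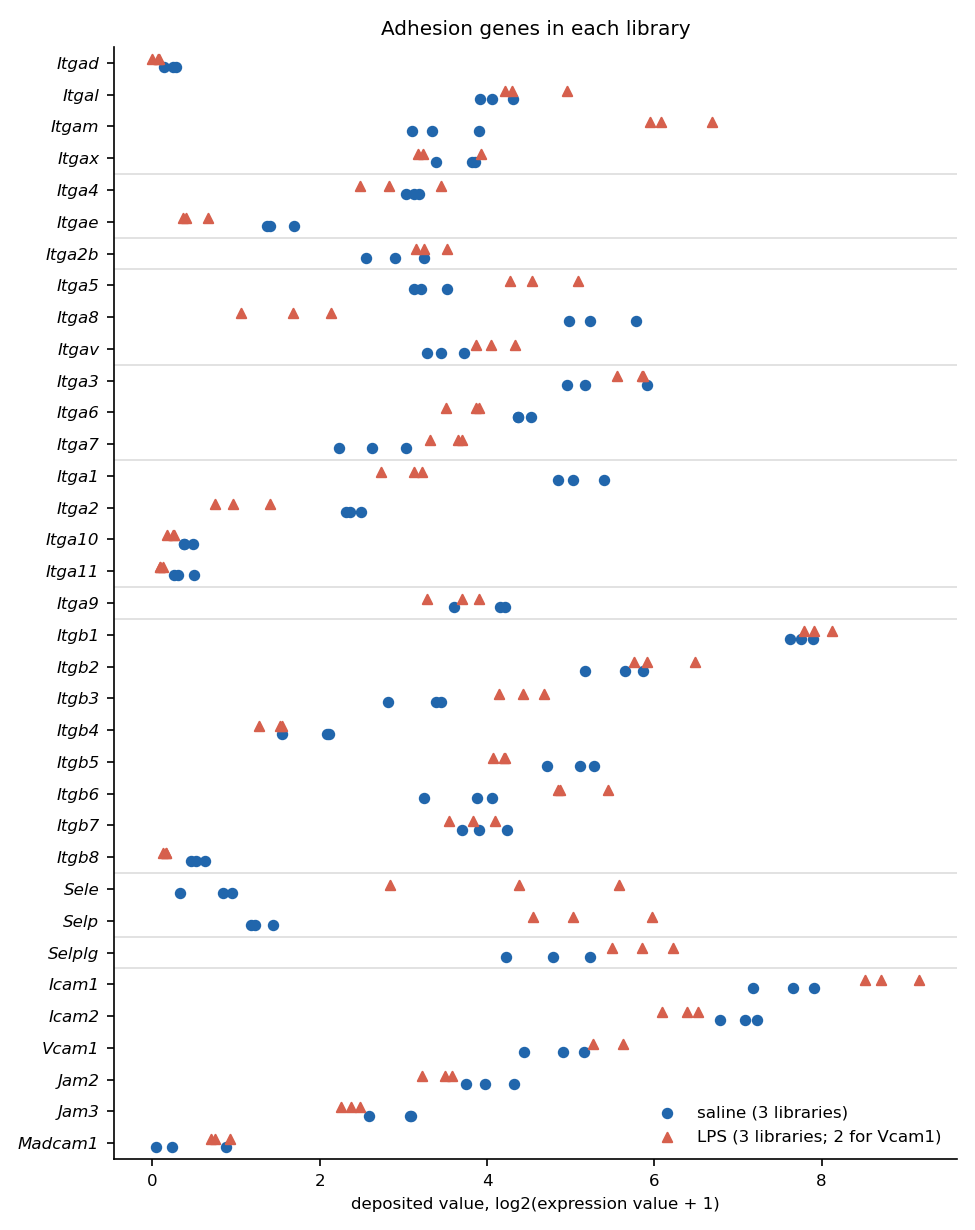
Deposited value of each of the 35 adhesion genes (log2(expression value + 1), x axis) in the 3 saline libraries (circles) and 3 LPS libraries (triangles; 2 for Vcam1), grouped by role. Sele, Selp and Itgam lie far to the right in LPS, from 2.84, 4.55 and 5.95 upward, and Itga8 and Itga1 far to the left, at most 2.14 and 3.22.

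How many libraries stood clear of the other group gives a second view. In 11 of the 30 tested genes every LPS value lay above every saline value, a pattern seen in 32.7% of all genes tested. In 10 genes every LPS value lay below every saline value, against 30.7% of all genes tested. The other 9 overlapped. Passing the filter on low values depended on 1 group for 3 genes: Itgae and Itga2 passed through saline and Sele through LPS, so a difference in these was to be found by construction and their counts are given as description. Among the LPS libraries, LPS 1 was the farthest from saline for most genes, being the highest LPS library for 9 of the 10 that rose (Itga7 was highest in LPS 2) and the lowest for 8 of the 9 that fell (Itga2 was lowest in LPS 2).

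The selectins had the largest increases. Sele encodes E-selectin, which endothelium makes anew when activated by cytokines or LPS (chromosome 1, 164048234 to 164057677, plus strand, mm10). Its values were 0.33, 0.95 and 0.84 in saline and 5.58, 2.84 and 4.38 in LPS. The gene was near the floor of the scale in all saline libraries and clearly present in all LPS libraries, with LPS 2 well under LPS 1. The difference was 3.56 (SE 0.54; limma adjusted p = 0.000943), and it ranged from 2.91 without LPS 1 to 4.28 without LPS 2. Selp, which encodes P-selectin, a protein stored in endothelial granules and in platelets, lies in the same region (chromosome 1, 164115264 to 164150026, plus strand). It read 1.18, 1.45 and 1.23 in saline and 5.97, 4.55 and 5.02 in LPS. The groups were wide apart and the order of the LPS libraries was that of Sele. The difference was 3.90 (SE 0.31; limma adjusted p = 7.69e-05). Selp also passed with quantile normalization (3.92) and with equal sums of values in every library (3.28). For Sele those scalings gave 3.61 and 3.06. As Sele entered the test through the LPS libraries alone, its p-value is a description and no support.

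S100a8, a neutrophil gene, had the same order of LPS libraries as the selectins (13.73, 12.48 and 13.31 in LPS 1, 2 and 3). Of the other neutrophil markers tested, S100a9, Cxcr2, Mmp8, Il1r2, Retnlg, Mmp9 and Ngp shared that order, and Csf3r, Camp and Ltf did not. Whether the selectins and these markers are linked was not tested. Endothelial marker genes, chosen with earlier results of these data known, did not rise as a group. Of 14 tested, 1 rose and 7 fell, where 25.7% of all genes tested rose and 24.3% fell. Aplnr, among those that fell, entered the test through saline alone, so that count is in part made by the filter. The median difference of the 14 was -0.82. The summed expression value of the 11 with a value in every library was 897 to 1046 in saline and 770 to 940 in LPS. For Cdh5, a junction gene of nearly all endothelium, the estimate was -0.50 (SE 0.19; limma adjusted p = 0.0519), and for Pecam1 it was -0.24 (SE 0.19; limma adjusted p = 0.317). Both passed as lower with quantile normalization and with equal sums, and of the 14 markers 10 and 12 then fell. Within a library the log2 ratio of Selp to Cdh5 was -7.07, -6.06 and -6.90 in saline and -0.82, -2.13 and -1.72 in LPS. This pair was chosen after the values were seen, and which cells the Selp RNA came from was not tested. For Sele over Cdh5, a pair chosen in the same way, the ratio went from -9.39, -6.95 and -7.67 to -1.23, -3.98 and -2.39. Sele was near the floor in saline, where the making of the tables and the treatment cannot be told apart. Its ratio is therefore a description and no support.

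The upstream sequences of Sele, Selp and Icam1 are shown because these are the endothelial ligands that rose, and, as background, because NF-kB, a transcription factor activated by LPS signalling, is a known regulator of endothelial adhesion genes. Each is the 250 bases before the RefSeq start (GRCm38.p6), read 5′ to 3′ on the plus strand, with capitals marking the letters matched by a motif search. The windows lie at chr1:164047984-164048233 (Sele), chr1:164115014-164115263 (Selp) and chr9:21015690-21015939 (Icam1).
Sele: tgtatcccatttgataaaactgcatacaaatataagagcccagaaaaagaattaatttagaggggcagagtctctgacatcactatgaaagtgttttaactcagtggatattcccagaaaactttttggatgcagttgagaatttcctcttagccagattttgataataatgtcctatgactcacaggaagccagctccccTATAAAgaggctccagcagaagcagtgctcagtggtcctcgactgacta
Selp: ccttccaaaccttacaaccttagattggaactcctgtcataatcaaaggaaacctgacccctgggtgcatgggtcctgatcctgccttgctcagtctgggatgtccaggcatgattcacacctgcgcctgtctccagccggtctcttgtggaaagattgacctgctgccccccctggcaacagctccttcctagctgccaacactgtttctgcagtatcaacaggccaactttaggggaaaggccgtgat
Icam1: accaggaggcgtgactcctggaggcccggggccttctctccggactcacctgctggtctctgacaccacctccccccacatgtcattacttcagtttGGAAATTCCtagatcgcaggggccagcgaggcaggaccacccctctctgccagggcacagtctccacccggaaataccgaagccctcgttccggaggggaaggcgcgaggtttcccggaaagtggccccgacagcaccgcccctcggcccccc

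Both strands were searched for the NF-kB forms GGGNTTTCC and GGAANTTCC, for GAGGAAGT, a form bound by the myeloid factor PU.1, and for TATAAA, which was added after the windows were seen. The capitals in Icam1, 153 to 145 bases before the start, are a match to GGAANTTCC, found in 0.813% of 32851 windows of the same length. The capitals in Sele, 49 to 44 bases before the start, are TATAAA, found in 12.4% of windows. The Selp window holds none of these letter strings, which says only that these letters are not in it. RefSeq windows were at hand for 22 of the 35 genes. Among them GGGNTTTCC (1.46% of all windows) matched in Itgb1 and Madcam1, and GAGGAAGT (2.44%) in Itga11, Itgav and Itgb6. No window held more than 1 match, so no matches overlapped.

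Selplg, the ligand that all selectins share, rose as well (chromosome 5, 113818536 to 113832644, minus strand). Its values were 4.23, 5.23 and 4.78 in saline and 6.22, 5.50 and 5.85 in LPS. The groups did not overlap, though saline 2 came within reach of LPS 2. The difference was 1.11 (SE 0.27; limma adjusted p = 0.00805). The call ended with equal sums (0.33) and without a filter on low values (limma adjusted p = 0.0744). The RNA comes from leukocytes of many kinds, and the neutrophil and monocyte markers given below rose in the same libraries; their part in the result was not tested.

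Genes for selectin ligand synthesis moved both ways. Of 14 tested, 3 rose, 5 fell and 6 did not pass, where 25.7% of all genes tested rose and 24.3% fell. The median difference of the 14 was 0.13. With equal sums 0 rose and 10 fell, and the median was -0.63. The largest changes were decreases in Glg1, which encodes a Golgi protein identified as an E-selectin ligand (-1.65, SE 0.19; limma adjusted p = 0.000252), and in the sulfotransferases Chst4 (-1.33, SE 0.21) and Chst2 (-1.28, SE 0.16), which add sulfate to carbohydrate chains. Chst4 entered the test through saline alone, so its decrease was there by construction. It read at least 1.73 in each saline library and 0.78, 0.04 and 0.66 in LPS, with no overlap.

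The beta2 integrins, found on leukocytes, pair the common subunit Itgb2 with Itgal (LFA-1), Itgam (Mac-1), Itgax or Itgad. Itgam, the subunit typical of neutrophils and monocytes, rose strongly (chromosome 7, 128062640 to 128118491, plus strand). It read 3.11, 3.91 and 3.34 in saline and 6.69, 6.07 and 5.95 in LPS. Every LPS library lay at least 2 log2 units above every saline library. The difference was 2.78 (SE 0.25; limma adjusted p = 9.74e-05), between 2.56 and 3.01 with 1 library left out at a time, and 2.02 with equal sums.

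The other beta2 subunits did not pass on the deposited scale. Itgal, which lymphocytes carry in abundance, was 3.92, 4.06 and 4.31 in saline and 4.95, 4.30 and 4.22 in LPS, so only LPS 1 stood clear. Its difference was 0.40 (95% interval -0.08 to 0.87; limma adjusted p = 0.145) and turned to -0.37 with equal sums. Itgax, typical of dendritic cells and alveolar macrophages, had 3.39, 3.82 and 3.86 in saline and 3.23, 3.93 and 3.18 in LPS, a difference of -0.25 (95% interval -0.75 to 0.26; limma adjusted p = 0.379). With equal sums Itgax passed as lower (-0.98; limma adjusted p = 0.00353). Itgb2 itself was 5.17, 5.86 and 5.65 in saline and 6.48, 5.76 and 5.91 in LPS, and here saline 2 exceeded LPS 2. Its difference was 0.49 (95% interval -0.05 to 1.03; limma adjusted p = 0.113), turning to -0.30 with equal sums. Itgad was too low to test, at 0.14 to 0.29 in saline and 0 to 0.08 in LPS.

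Itgam, Itgax and Itgad lie next to each other on chromosome 7 (Itgax at 128129547 to 128150657, Itgad at 128154376 to 128223816), and Itgal on the same chromosome at 127296260 to 127335138. No source used here names the counting tool, so reads shared between such related genes could not be checked. Set against each other within a library, where a common factor cancels, the log2 ratio of Itgam to Itgal was -0.88, -0.16 and -1.04 in saline and 1.76, 1.83 and 1.79 in LPS. In LPS this ratio was nearly the same in the 3 libraries (SD 0.03), whereas both genes varied in level. Itgam over Itgb2 went from -2.19, -2.03 and -2.43 to 0.20, 0.32 and 0.04. The gene pairs were chosen after the values were seen and are given as a description, for the change between groups and not for the level of 1 gene against the other.

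**Figure D2:**
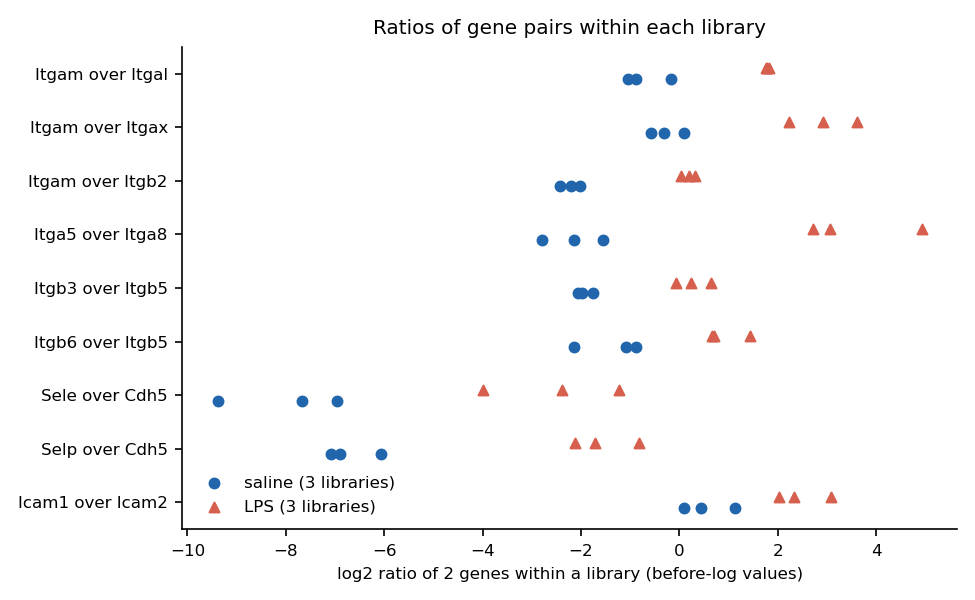
Log2 ratio of the expression values of 2 genes within each library (x axis) for 9 gene pairs, in saline (circles) and LPS (triangles). Every pair shifted to the right in LPS without overlap, by 1.92 (Icam1 over Icam2) to 5.73 (Itga5 over Itga8) on average. The pairs were chosen after the values were seen, each with a gene that rose named first, so the common direction follows from that choice.

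Markers of the cells that carry these integrins also differed. Of 11 neutrophil markers tested 9 rose and 0 fell, and their summed expression value was 711 to 2055 in saline and 9822 to 25531 in LPS. Such a sum follows its highest genes, here S100a8 and S100a9. All 11 markers of monocytes and recruited macrophages rose, with sums of 356 to 596 in saline and 1348 to 2395 in LPS. Quantile normalization left 10 of them higher and equal sums 9. Alveolar macrophage markers went down more often than up (1 rose, 7 fell, 3 did not pass), with sums of 463 to 618 in saline and 483 to 537 in LPS. Chil3 stands in both lists and is the alveolar macrophage marker that rose. It had the highest value of that list in every library, so it weighs most in the sum. Of 9 T cell markers 5 fell and 0 rose (sums of 66.0 to 97.4 and 50.4 to 57.1), and of 10 B cell markers 9 fell and 0 rose (sums of 252 to 405 and 51.4 to 82.2). No marker in any cell type list was at 0 in every library of a group. Ngp entered the test through LPS alone, and Siglecf, Fabp1 and Cr2 through saline alone. The neutrophil, alveolar macrophage and B cell counts are therefore in part made by the filter. Shares over all genes tested were 25.7% higher and 24.3% lower. The part of the cell types in the integrin differences was not tested.

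Of the lymphocyte subunits Itga4, Itgae and Itgb7, only Itgae passed. Itga4, which pairs with beta1 or beta7 and binds VCAM-1 and MAdCAM-1, was 3.04 to 3.19 in saline and 2.49 to 3.45 in LPS, a difference of -0.19 (95% interval -0.70 to 0.31; limma adjusted p = 0.490). Itgb7 had a difference of -0.12 (95% interval -0.55 to 0.31; limma adjusted p = 0.619), with 3.70 to 4.24 in saline and 3.55 to 4.09 in LPS. With equal sums both passed as lower (-0.90 and -0.87). Itgae, or CD103, marks T cells within epithelium and a subset of dendritic cells, and binds E-cadherin (chromosome 11, 73090583 to 73147446, plus strand). It read 1.40, 1.37 and 1.69 in saline and 0.37, 0.41 and 0.66 in LPS, with no overlap. The difference was -1.01 (SE 0.16; limma adjusted p = 0.00110), and -1.97 with a pseudocount of 0.1, since the deposited scale compresses low values. As Itgae entered the test through saline alone, its p-value is a description and no support.

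The platelet subunit Itga2b, which with Itgb3 forms the fibrinogen receptor, did not pass. It was 3.24, 2.55 and 2.91 in saline and 3.15, 3.24 and 3.52 in LPS, with saline 1 inside the LPS range. The difference was 0.40 (SE 0.19; limma adjusted p = 0.110), 0.58 without saline 1 (limma adjusted p = 0.0392) and -0.31 with equal sums. Its partner Itgb3, which also pairs with Itgav on endothelium and macrophages, rose (chromosome 11, 104608000 to 104670476, plus strand). Itgb3 values were 3.40, 2.82 and 3.45 in saline and 4.68, 4.15 and 4.43 in LPS, clear of each other. The difference was 1.20 (SE 0.21; limma adjusted p = 0.00166), and the call ended with equal sums (0.45). Of 9 platelet and megakaryocyte markers tested 4 rose and 0 fell, where 25.7% of all genes tested rose and 24.3% fell. The median difference of the markers was 0.20. With equal sums 4 rose and 1 fell, and the median was -0.26. Ppbp, Gp1ba, Gp5, Gp6 and Treml1 did not pass on the deposited scale. Sums over the markers with a value in every library were 90.8 to 131 in saline and 235 to 295 in LPS. Pf4, which rose, was the highest of them in every library. The part of platelets in these values was not tested.

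Among the integrins that bind the RGD sequence of matrix proteins, Itga5 rose and Itga8 fell. Itga5 forms the main fibronectin receptor with Itgb1 (chromosome 15, 103344286 to 103366763, minus strand). It read 3.13, 3.21 and 3.52 in saline and 5.09, 4.28 and 4.54 in LPS, without overlap. The difference was 1.35 (SE 0.21; limma adjusted p = 0.00114), and it still passed with equal sums (0.60; limma adjusted p = 0.0416). Itga8, carried by alveolar fibroblasts and smooth muscle, is the receptor of nephronectin (chromosome 2, 12106632 to 12301922, minus strand). It was 5.78, 5.23 and 4.98 in saline and 1.06, 1.68 and 2.14 in LPS. The lowest saline library stood far above the highest LPS library, and LPS 1 was lowest. The difference was -3.70 (SE 0.28; limma adjusted p = 7.06e-05), between -3.96 and -3.42 with 1 library left out at a time. Of the 30 genes tested it had the largest decrease under each of the 3 scalings.

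Npnt, which encodes nephronectin, fell in the same libraries. Its values were 6.90, 5.99 and 6.47 in saline and 3.98, 4.10 and 4.57 in LPS, a difference of -2.24 (SE 0.25; limma adjusted p = 0.000225). Markers of alveolar fibroblasts and matrix, a list that holds Npnt, fell in 10 of 12 tested with 0 higher, and the summed value of the 11 with a value in every library was 1931 to 3007 in saline and 672 to 788 in LPS. Smooth muscle and pericyte markers fell in 7 of 9 with 0 higher, with sums of 251 to 409 and 112 to 224. Cardiac muscle markers, which show heart or pulmonary vein in a lung piece, fell in all 10 tested, with sums over the 7 with a value in every library of 258 to 2206 in saline and 54.4 to 176 in LPS. Fgfr4 of the fibroblast list, Rgs5 of the smooth muscle list, and Nppa and Pln of the cardiac list entered the test through saline alone. These counts are therefore in part made by the filter. Shares over all genes tested were 25.7% higher and 24.3% lower. The part of fibroblasts, smooth muscle, pericytes and cardiac muscle in the fall of Itga8 was not tested.

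Itgav, the subunit shared by the TGF-beta-activating integrins, passed with a small difference of 0.60 (SE 0.18; limma adjusted p = 0.0193) that turned to -0.15 with equal sums. Its values were 3.28 to 3.73 in saline and 3.86 to 4.33 in LPS. The call ended without saline 1 (limma adjusted p = 0.0507), without saline 2 (0.05002) and without LPS 1 (0.0742). Its beta partners went different ways. Itgb6, an epithelial subunit known for activating TGF-beta and for its rise in injured lung, increased (chromosome 2, 60598292 to 60722643, minus strand). It read 3.25, 3.89 and 4.06 in saline and 5.45, 4.88 and 4.85 in LPS, a difference of 1.33 (SE 0.24; limma adjusted p = 0.00215). With equal sums it was 0.56 (limma adjusted p = 0.0624) and no longer passed. Itgb5, which binds vitronectin, fell from 5.27, 4.72 and 5.11 to 4.07, 4.21 and 4.22, a difference of -0.87 (SE 0.17; limma adjusted p = 0.00305). The log2 ratio of Itgb6 to Itgb5 within a library was -2.15, -0.88 and -1.09 in saline and 1.43, 0.70 and 0.66 in LPS, and that of Itgb3 to Itgb5 -1.98, -2.06 and -1.76 against 0.63, -0.06 and 0.23. Itgb8 was too low to test, at 0.46 to 0.63 in saline and 0.13 to 0.17 in LPS.

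Alveolar epithelial markers were set beside Itgb6. Shares over all genes tested were 25.7% higher and 24.3% lower. Of 10 type 1 cell markers 1 rose and 4 fell, with sums of 2529 to 3169 in saline and 2376 to 3098 in LPS. Of 10 type 2 cell markers 1 rose and 5 fell, with sums over 9 of them of 18855.5 to 20229 in saline and 14670.5 to 15812 in LPS. Sftpc, by far the highest of these in every library, sets most of that sum and did not pass (-0.39, SE 0.32; limma adjusted p = 0.327). With quantile normalization 0 type 1 markers rose and 6 fell (median -0.90, against -0.05 as deposited), and with equal sums 0 rose and 8 fell. For type 2 markers 0 rose and 9 fell under both scalings.

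Of the collagen-binding subunits only Itga1 and Itga2 could be tested, and both were lower. Itga1, carried by fibroblasts, smooth muscle, capillary endothelium and resident T cells, binds collagen IV (chromosome 13, 114953096 to 115101964, minus strand). It read 5.40, 4.85 and 5.03 in saline and 2.74, 3.22 and 3.13 in LPS. The groups were more than 1 log2 unit apart at their nearest. The difference was -2.06 (SE 0.19; limma adjusted p = 0.000109). Its neighbour Itga2 (chromosome 13, 114833081 to 114932100, minus strand), found on platelets and epithelium, was 2.50, 2.32 and 2.37 in saline and 0.97, 0.75 and 1.40 in LPS. The difference was -1.35 (SE 0.18; limma adjusted p = 0.000514), again with no overlap. Since Itga2 entered the test through saline alone, its p-value is a description and no support. Itga10 (0.38 to 0.48 in saline, 0.18 to 0.26 in LPS) and Itga11 (0.26 to 0.50 and 0.09 to 0.13) were too low to test, though LPS values were the lower in both. Fitted without the filter on low values, Itga10 and Itgb8 passed as lower. Values of Itga10, Itga11 and Itgb8 lay near 0 in every library, where the making of the tables and the treatment cannot be told apart.

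Laminin-binding subunits did not move together. Itga6, the partner of Itgb1 or Itgb4 on epithelium, endothelium and platelets, fell from 4.37 to 4.53 in saline to 3.51 to 3.90 in LPS, a difference of -0.67 (SE 0.15; limma adjusted p = 0.00674). Itga7, best known from muscle, rose from 2.23 to 3.03 in saline to 3.32 to 3.70 in LPS, a difference of 0.93 (SE 0.21; limma adjusted p = 0.00592). The Itga7 call ended with equal sums (0.23), without the filter (limma adjusted p = 0.0552) and without saline 2 and LPS 3 together (limma adjusted p = 0.0524). Itga3 of alveolar epithelium did not pass, with 4.96 to 5.92 in saline and 5.55 to 5.87 in LPS and a difference of 0.41 (95% interval -0.14 to 0.95; limma adjusted p = 0.187) whose sign turned with quantile normalization (-0.02) and equal sums (-0.38). Without saline 3 it was 0.69 and passed (limma adjusted p = 0.0204). Itgb4, the hemidesmosome subunit, was 2.09, 1.55 and 2.11 in saline and 1.28, 1.55 and 1.53 in LPS. Its difference was -0.46 (SE 0.18; limma adjusted p = 0.0598), and without saline 2 it was -0.65 and passed (limma adjusted p = 0.00955). Scaling moved it both ways, to -0.12 with quantile normalization, short of the threshold, and to -1.03 with equal sums, past it (limma adjusted p = 0.00302).

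Itgb1, the partner of most alpha subunits named so far, did not pass. It was 7.76, 7.89 and 7.62 in saline and 7.91, 7.79 and 8.13 in LPS, with overlap and a difference of 0.19 (95% interval -0.22 to 0.59; limma adjusted p = 0.407). The direction depended on scaling, since it passed as lower with quantile normalization (-0.56) and with equal sums (-0.61). Itga9, which binds tenascin-C and VCAM-1, was 3.60 to 4.22 in saline and 3.29 to 3.90 in LPS, a difference of -0.36 (95% interval -0.85 to 0.12; limma adjusted p = 0.183). Without saline 2 the Itga9 difference was -0.56 and passed (limma adjusted p = 0.0449), as it did with equal sums (-1.11; limma adjusted p = 0.00344).

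**Figure D3:**
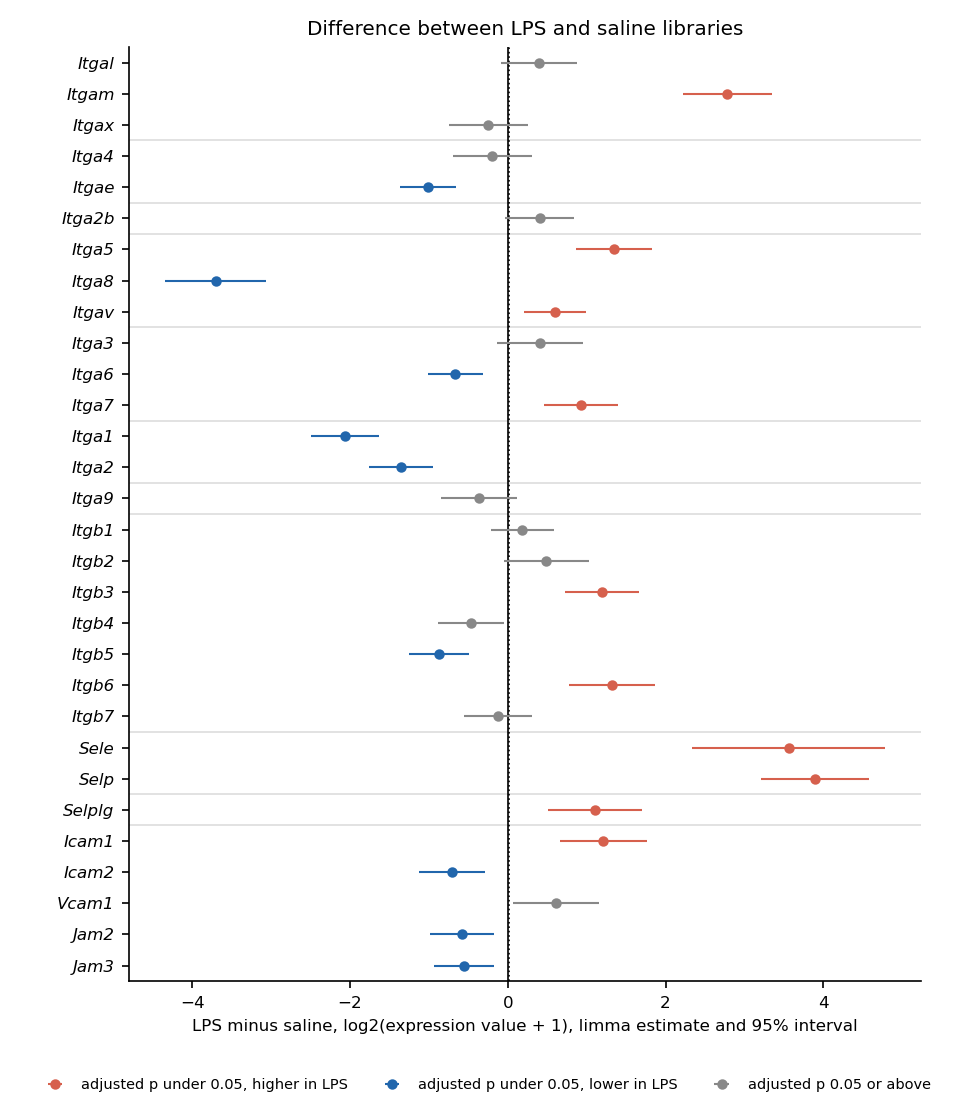
LPS minus saline difference (log2(expression value + 1), x axis) of the 30 adhesion genes tested, as the limma estimate with its 95% interval, coloured by whether the adjusted p was under 0.05; the dotted line is the median of all genes tested, 0.02. Selp (3.90), Sele (3.56) and Itgam (2.78) lie farthest right and Itga8 (-3.70) and Itga1 (-2.06) farthest left.

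The immunoglobulin-fold ligands of integrins differed among themselves. Icam1, the inducible ligand of LFA-1 and Mac-1, was already high in saline lung (chromosome 9, 21015985 to 21028817, plus strand). It read 7.18, 7.66 and 7.91 in saline and 9.16, 8.52 and 8.71 in LPS, without overlap. The difference was 1.21 (SE 0.25; limma adjusted p = 0.00364), but the call ended with quantile normalization (0.40; limma adjusted p = 0.204) and with equal sums (0.41; limma adjusted p = 0.142). Icam2, a ligand that endothelium carries at rest, was lower, at 7.09, 7.23 and 6.79 in saline and 6.09, 6.52 and 6.39 in LPS. Its difference was -0.70 (SE 0.19; limma adjusted p = 0.0125), no longer past the threshold without LPS 1 (-0.58; limma adjusted p = 0.0596). The log2 ratio of Icam1 to Icam2, which a common factor per library cannot move, was 0.10, 0.44 and 1.13 in saline and 3.09, 2.01 and 2.33 in LPS. The lower Icam2 values are part of this shift, and the pair was chosen after the values were seen.

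Vcam1, the endothelial ligand of the alpha4 integrins, has no value in LPS 3 (chromosome 3, 116109949 to 116129688, minus strand). It was 4.44, 5.16 and 4.91 in saline and 5.62 and 5.27 in LPS 1 and LPS 2. Both LPS values lay above saline, LPS 2 by little. The difference was 0.61 (SE 0.24, from 2 LPS libraries; limma adjusted p = 0.0612), 0.77 without saline 2 (limma adjusted p = 0.0269) and -0.18 with equal sums. Madcam1, the gut homing ligand of alpha4 beta7, was too low to test, at 0.05 to 0.89 in saline and 0.70 to 0.93 in LPS.

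Jam2 and Jam3, which encode junction proteins of endothelium, were both lower by a small margin. Jam2 was 3.75 to 4.33 in saline and 3.23 to 3.58 in LPS, a difference of -0.58 (SE 0.18; limma adjusted p = 0.0240). Jam3 was 2.59 to 3.09 in saline and 2.26 to 2.48 in LPS, a difference of -0.55 (SE 0.17; limma adjusted p = 0.0237). Neither gene's groups overlapped, but both calls depended on single libraries. Jam2 no longer passed without saline 1 (limma adjusted p = 0.0896), LPS 1 (0.0864) or LPS 2 (0.0527). Jam3 no longer passed without saline 1 (limma adjusted p = 0.0806), saline 2 (0.0623), LPS 1 (0.0739) or LPS 2 (0.0617), nor with quantile normalization (0.136).

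Other receptors and junction proteins of leukocyte adhesion moved in both directions as well. Of 15 tested, 6 rose, 3 fell and 6 did not pass, where 25.7% of all genes tested rose and 24.3% fell. The median of the 15 was 0.27 as deposited, -0.14 after quantile normalization and -0.47 after equal sums. The counts turned round with it, to 3 higher and 6 lower after quantile normalization and to 1 higher and 7 lower with equal sums. Cd44, the hyaluronan receptor, rose by 1.75 (SE 0.23; limma adjusted p = 0.000459), from 5.27, 6.08 and 5.49 to 7.61, 7.33 and 7.15. Cd47, which binds thrombospondin and associates with integrins, rose by 1.13 (SE 0.16; limma adjusted p = 0.000594), but not past the threshold with equal sums (0.34). Itgbl1, whose protein is related to beta subunits, fell by 1.13 (SE 0.19; limma adjusted p = 0.00146).

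Inside the cell, the talin, kindlin and Rap1 machinery that switches integrins on, and the adaptors that tie them to actin, gave no common direction. Here 7 of 30 rose, 6 fell and 17 stayed short of the threshold, near the 25.7% and 24.3% of all genes tested that rose and fell. The median of the 30 was 0.01, against 0.02 over all genes tested. After quantile normalization 5 rose and 11 fell, and with equal sums 1 rose and 19 fell. Fyb, an adaptor of T cells and myeloid cells, rose by 1.46 (SE 0.20; limma adjusted p = 0.000566). Tln2, a talin of muscle and other tissues, had the largest decrease of that list (-1.70, SE 0.26, from 2 LPS libraries; limma adjusted p = 0.00130), but it entered the test through saline alone and had to differ. It was followed by the focal adhesion gene Tns1 (-1.08, SE 0.29, from 2 LPS libraries; limma adjusted p = 0.0161).

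Integrin ligands of matrix and plasma fell more often than they rose. Of 24 tested, 5 rose, 9 fell and 10 did not pass, with a median of -0.30. Over all genes tested 25.7% rose and 24.3% fell. Lama2 and Edil3, among those that fell, entered the test through saline alone, and Fgg, among those that rose, through LPS alone. These counts are therefore in part made by the filter. Quantile normalization gave 3 higher and 10 lower, and equal sums 2 higher and 16 lower with a median of -1.07. The largest increases were in Thbs1, the platelet and macrophage protein thrombospondin-1 (2.38, SE 0.28; limma adjusted p = 0.000405), and Tnc, tenascin-C of injured matrix (1.87, SE 0.35; limma adjusted p = 0.00313), each from 2 LPS libraries. Thbs1 read 4.29, 4.70 and 5.30 in saline and 7.08 and 7.20 in LPS. The largest change in the other direction was that of Npnt, given above with its receptor Itga8.

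**Figure D4:**
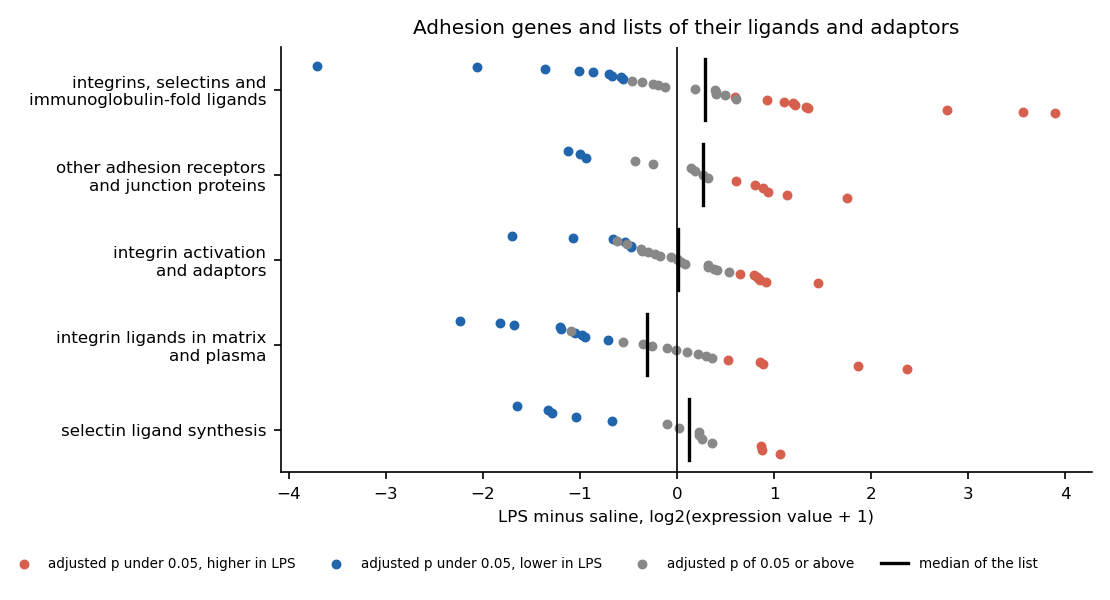
LPS minus saline difference (log2(expression value + 1), x axis) of each tested gene in the 35-gene group and in 4 lists of related genes, coloured by whether the adjusted p was under 0.05; bars are the list medians. The medians lie between -0.30 (integrin ligands) and 0.29 (the integrins, selectins and their ligands).

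All directions above are relative to the scaling as deposited. Setting every library to the same sum of values moved the median of all genes to -0.68, because the LPS libraries hold larger sums, and quantile normalization left it at 0.01. Measured from its own median, the equal-sums difference was 3.96 for Selp, 2.70 for Itgam, 1.28 for Itga5, 1.24 for Itgb6, 1.09 for Icam1, -2.13 for Itga1 and -3.69 for Itga8, close to the values as deposited. Equal sums apply 1 factor to each library, so this closeness was largely fixed in advance and is no support. Without that subtraction Itgb6 (0.56) and Icam1 (0.41) did not pass with equal sums, nor did Icam1 with quantile normalization (0.40). Under equal sums 4 adhesion genes rose (Itga5, Itgam, Sele and Selp) and 15 fell.

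**Figure D5:**
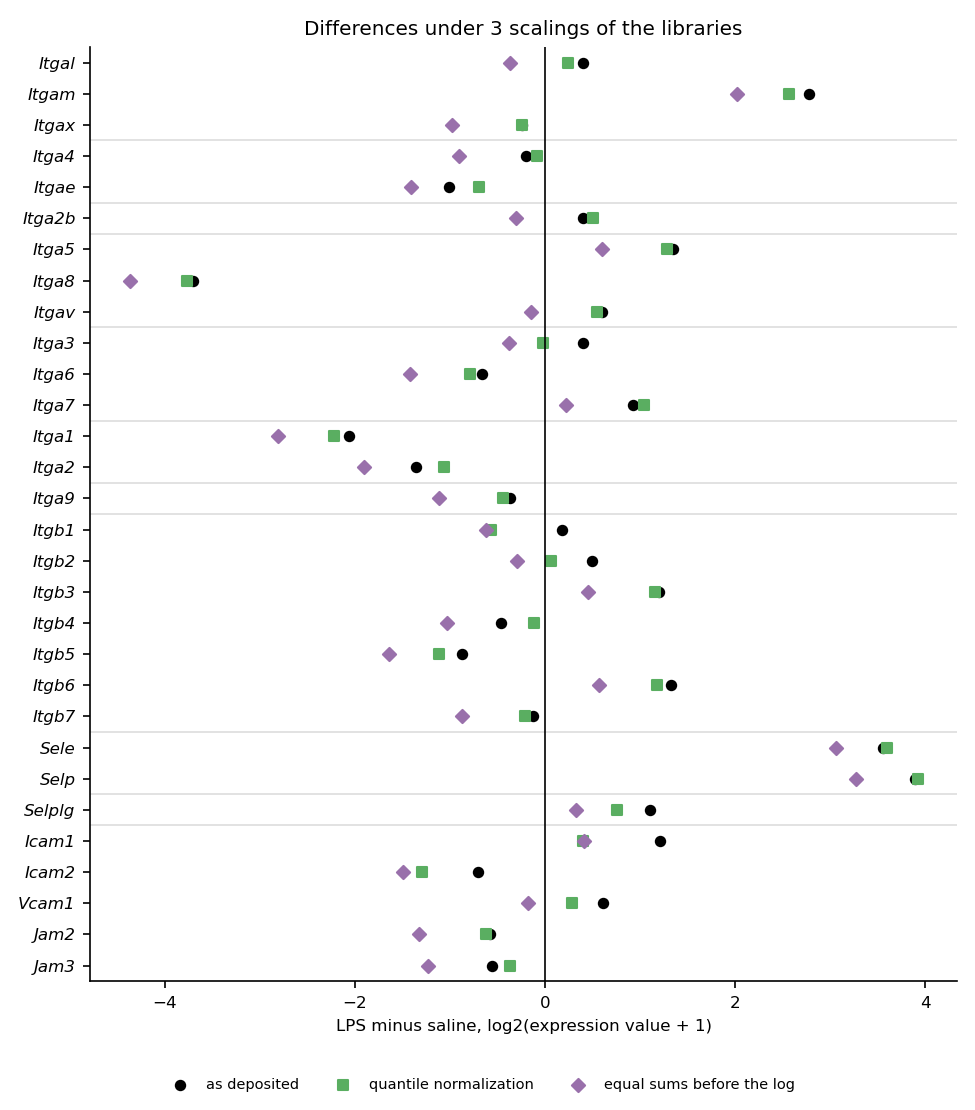
LPS minus saline difference (log2(expression value + 1), x axis) of the 30 adhesion genes tested, with the values as deposited (circles), after quantile normalization (squares) and with equal sums before the log (diamonds). Equal sums shift nearly all genes to the left, and Itgam (2.02), Sele (3.06) and Selp (3.28) stay far to the right.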

How the data were processed

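RNA was measured in 6 lung libraries (3 saline, 3 LPS), grouped by title. Per the labels' protocols, Trizol-extracted RNA went into a directional library kit. The aligner was TopHat and the build mm10, per the submitters' processing notes. The counter, annotation and scaling were not given in the sources used here. Deposited values were read as log2(value + 1) from their range (0 to 17.3, with exact zeros). No counts were used, so depth is unknown. Exact zeros number 3869 in each saline table and 5117 to 6223 in the LPS tables, a difference whose origin is not given.

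limma 3.58.1 (R 4.3.3, variance trend) was fitted to 13116 genes with at least 3 libraries at a value of 1 or above, with Benjamini-Hochberg adjustment and a threshold of 0.05, and was tested on simulated data. Genes without an LPS 3 value were fitted on the other 5 libraries. Members and lists were chosen with earlier results of these data known. All 35 members are accounted for: called members with a difference of at least 1 are given in every library, and from each list of related genes the 3 called genes with the largest change are named. Positions are from GENCODE M21 (mm10), which matched all 35 symbols. The labels do not say whether libraries are separate animals, and p-values then cover only the spread between samples, possibly technical. Alternatives covered the filter, pseudocount, scaling, threshold, variance model, replicate block and left-out libraries.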

Additional observations from a re-analysis of the deposited data

How the results depend on the processing

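Across the alternatives tried, 447 of the recomputed differences of adhesion genes kept direction and side of the threshold, 34 lost the call and 13 gained one with the sign kept, and 12 changed sign, whether or not the call changed too. The count of adhesion genes that rose was 10 and of those that fell 9. With equal sums these became 4 and 15, and over all genes 798 higher and 8343 lower in place of 3377 and 3188. An adjusted p of 0.01 left 2033 genes higher and 2004 lower, and a mean value of at least 5 left 1752 lower. With each library left out in turn, 9 to 11 adhesion genes rose and 6 to 10 fell, and over all genes 2461 to 3660 rose and 2440 to 3436 fell. With equal sums the sign changed for Itga2b (-0.31), Itga3 (-0.38), Itgal (-0.37), Itgav (-0.15), Itgb1 (-0.61), Itgb2 (-0.30) and Vcam1 (-0.18), and with quantile normalization for Itga3 (-0.022) and Itgb1 (-0.56). It also changed for Itga4 without LPS 2 (0.025; range -0.46 to 0.025) and for Itgb7 without saline 3 or LPS 3 (0.023 and 0.02; range -0.26 to 0.023). The cause was not tested. Without saline 2 and LPS 3 together, 9 adhesion genes rose and 8 fell.

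Same-numbered libraries did not deviate together (correlations across 10295 genes of -0.23, -0.08 and -0.25), so the numbers were not taken as pairs. With the replicate block 10 adhesion genes rose and 7 fell, Jam2 (limma adjusted p = 0.0615) and Jam3 (0.0537) losing the call, and 2793 genes were higher and 2624 lower. Depth is unknown, so what it limits cannot be stated, and fold changes of low genes are understated.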
